A study of Mus musculus with 4 samples.

Results

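Ptprc is the gene of CD45, a receptor-type tyrosine phosphatase found on nearly all blood cells, and B220 is the form of that protein that marks B-lineage cells. The Ptprc transcript is 1 of 32285 gene features, and the B220 antibody is 1 of 15 antibody features: 13 for surface proteins and 2 hashtags. Both were found by name in the feature lists and were followed in 25273 kept cells, above all in 7813 B-cell progenitor-like cells. The pair was singled out because earlier results on these cells had shown a low B220 count without a low Ptprc level in the B-lineage cells of the double-deletion library. That contrast is therefore given as a description, with no test.

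The cells were bone marrow sorted for CD45.2 and Kit and taken 10 weeks after transplantation, in 4 groups of 1 library each. By their labels these are a control, deletions of Mll3 or of Mll4 alone, here named by the Mll3 label and the Mll4 label, and a deletion of both, here named the double-deletion library. Kmt2c encodes Mll3 and Kmt2d encodes Mll4, 2 related histone methyltransferases of enhancers. The strain, the age of the animals, the deleting allele or Cre, the host, and the number of animals pooled are not given in the sources used here. What the control carries is not given either. CD45.2 is an allelic form of the Ptprc product, so the gate selected cells with this protein on their surface, and Kit was the second gate. With 1 library a group there is no replicate, no comparison below has a test, and every interval is a 95% interval for counting error only. The comparisons with control all share the same control library.

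CD45 acts early in antigen receptor signalling: it removes an inhibitory phosphate from Src-family kinases such as Lyn, Fyn and Lck, which the kinase Csk puts there. The outer part of CD45 varies, because exons A, B and C can each be kept or skipped during splicing, and the kept exons carry many O-linked sugars. B cells keep the variable exons and bear the largest form, which is called B220, while myeloid, erythroid and stem cells mostly skip them. The commonly used B220 antibody needs the part encoded by exon A; which clone was used here is not given in the sources used here. The RNA-binding protein hnRNPLL, from the gene Hnrnpll, is known to promote skipping of these exons.

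Ptprc (ENSMUSG00000026395) lies at chr1:138062861-138175708 on the minus strand in GENCODE M21 on GRCm38, and its longest annotated transcript has 33 exons and 5074 bases. The 3 variable exons are printed because the B220 protein differs from other CD45 forms by what they encode. They are coding exons of the minus strand, shown 5′ to 3′ from the GRCm38 genome, all in lower case with no part marked. Exon A, at chr1:138122456-138122584, has 129 bases and is in 3 of 13 annotated transcripts. Exon B, at chr1:138120020-138120166, has 147 bases and is in 2 of them, and exon C, at chr1:138117754-138117894, has 141 bases and is in 1.
Exon A: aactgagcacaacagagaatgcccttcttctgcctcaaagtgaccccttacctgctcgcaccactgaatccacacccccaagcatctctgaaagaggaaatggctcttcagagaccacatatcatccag
Exon B: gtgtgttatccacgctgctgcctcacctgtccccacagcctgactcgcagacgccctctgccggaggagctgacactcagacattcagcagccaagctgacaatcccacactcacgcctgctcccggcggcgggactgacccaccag
Exon C: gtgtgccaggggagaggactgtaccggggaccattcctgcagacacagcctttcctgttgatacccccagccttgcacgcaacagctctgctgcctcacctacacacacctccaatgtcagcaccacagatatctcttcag
From the ends of exons A, B and C, the transcript runs on for 4749, 4602 and 4461 bases. The libraries were made with a 3′ chemistry that reads near the transcript end, so a Ptprc UMI (a count of 1 captured RNA molecule) does not tell which of these exons the molecule held. The transcript values below are therefore sums over all CD45 splice forms. The antibody count, in contrast, depends on the form. Inside the gene the annotation also has A130071D04Rik on the same strand, which is not among the counted features.

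The 4 libraries held 6622 to 10001 barcodes and 36413830 to 174795636 gene UMIs as deposited, and 5350 to 7146 kept cells with a median of 5142 to 16963.5 gene UMIs. The Mll4 library was the shallowest. Between 3 and 15 cell barcodes were shared by any 2 libraries, at most 0.256% of the smaller one. Summed counts are given as CPM, that is, scaled to a common total of gene UMIs in the same cells. Kmt2c was at 47.9 CPM in control, 27.2 CPM under the Mll3 label, 59.2 CPM under the Mll4 label and 34.8 CPM in the double-deletion library. Kmt2d was at 25.8, 21.6, 24.99 and 24.7 CPM in the same order, so over all cells it did not follow the Mll4 label. In the B-cell progenitor-like class it was at 40.2 CPM in control (33.6 to 47.8, a 95% counting interval), 25.3 CPM under the Mll3 label (19.9 to 31.9), 16.8 CPM under the Mll4 label (6.18 to 36.7, 6 UMIs) and 24.7 CPM in the double-deletion library (23.6 to 25.9). A 3′ count outside a deleted part checks nothing, and which part was deleted is not given, so the names say only what the labels say.

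Cells were grouped into classes by clustering on the transcripts without Ptprc and by fixed marker genes. The B-cell progenitor-like class, named here for short the B-progenitor class, held 471 control cells, 369 under the Mll3 label, 143 under the Mll4 label and 6830 in the double-deletion library. All 13 of its markers were detected in each library, and their levels summed to 15885 CPM in control against 13812 CPM in the double-deletion library. Different clusters made up the class: 470 of the 471 control cells were in clusters 0 and 15, and 6824 of the 6830 double-deletion cells were in clusters 22 to 25. Neutrophil markers, 9 or 10 of 10 detected, summed to 2520 CPM in the class in control, 1840 CPM and 6698 CPM under the Mll3 and Mll4 labels and 80.9 CPM in the double-deletion library. Markers of granulocyte progenitors, all 8 detected, summed to 825, 994, 898 and 63.9 CPM in that order. Other marker sets had higher sums in the double-deletion class, mainly through few of their genes. Stem and multipotent progenitor (HSC/MPP) markers summed to 52.2, 67.7, 103.9 and 134.6 CPM in that order. In the double-deletion class Hoxa9 gave 72.7 CPM of this and Meis1 51.1 CPM, against 3.14 and 7.54 CPM in control. Ctla2a, Adgrl4 and Cd34 were lower there than in control. Dendritic cell markers summed to 441, 364, 446 and 933 CPM. Tcf4 gave 823 CPM of the last sum, against 305 CPM in control. Flt3 was also higher, at 29.8 against 5.66 CPM, while Bst2, Ccr7 and Runx2 were lower. The part of these markers in the values below was not tested.

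In the B-progenitor class, Ptprc was at 105.6 CPM in control (94.6 to 117.5, from 336 UMIs) and at 115.1 CPM in the double-deletion library (112.7 to 117.5, from 8735 UMIs). It was at 78.1 CPM under the Mll3 label (68.3 to 89.0, from 225 UMIs) and at 106.7 CPM under the Mll4 label (75.5 to 146, from 38 UMIs). The log2 ratio to control was 0.12 in the double-deletion library (-0.03 to 0.29), 0.01 under the Mll4 label (-0.51 to 0.50) and -0.43 under the Mll3 label (-0.68 to -0.19). Only the last of these 3 intervals lies wholly on one side of 0, and its counting error takes no account of the spread between animals. Per cell and without scaling, the double-deletion cells held more Ptprc UMIs than control by 0.84 on the log2 scale, and their median cell had 9936 gene UMIs against 4389. After each cell was thinned to 2000 UMIs, 20.8% of the double-deletion cells and 23.4% of the control cells had a Ptprc UMI, against 62.3% and 47.6% before thinning. The thinning left out 30 control cells and 83 double-deletion cells. Free RNA can add such UMIs, and the erythroid progenitor-like cells of control, the class lowest in Ptprc, had one in 6.09% of cells after thinning and in 52.5% before, at a median of 47503 UMIs.

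The B220 antibody gave another picture in the same cells. The median B220 count was 193 in control, 172 under the Mll3 label, 166 under the Mll4 label and 13 in the double-deletion library. The middle 80% of cells lay between 105 and 305 in control and between 5 and 49 in the double-deletion library, so these ranges do not overlap. The mean was 199.6 in control and 24.1 in the double-deletion library, a log2 ratio of -3.05 (-3.06 to -3.04). Under the Mll3 and Mll4 labels the log2 ratio of the mean was -0.15 (-0.16 to -0.13) and -0.12 (-0.14 to -0.10). The first of these turned to 0.036 when mature B-like cells were added, and the Ptprc ratio under the Mll3 label then came to -0.035. These narrow intervals count antibody molecules and say nothing of the spread between animals or stainings. The lowest control cell had 18 counts. Of the double-deletion cells, 3.37% reached the control 10th percentile and 0.864% the control median, although the highest of them had 1042 counts, above the highest control cell at 492.

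**Figure D1:**
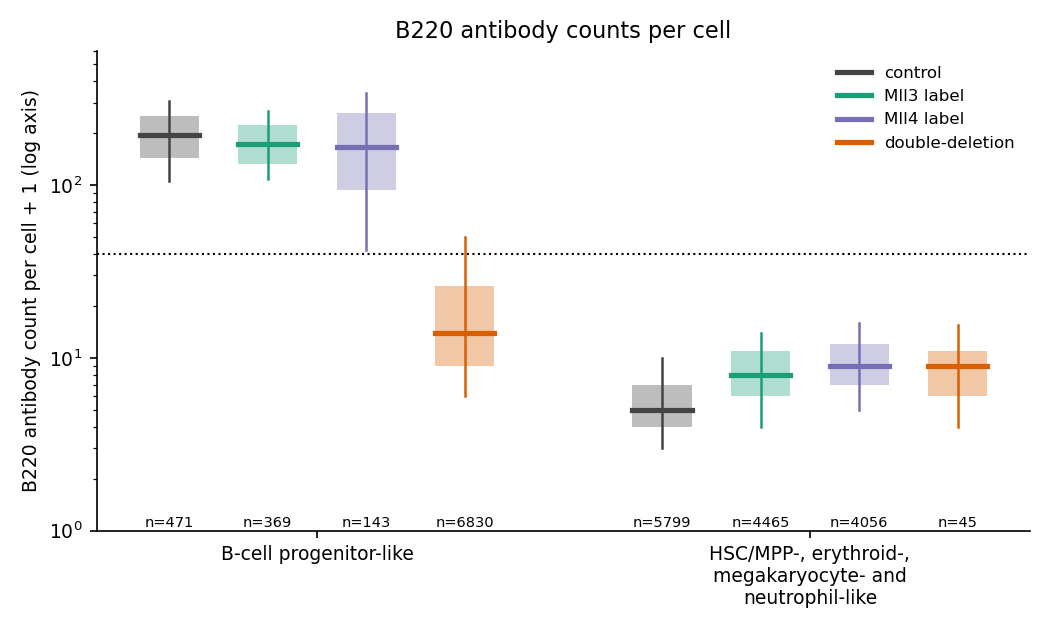
B220 antibody counts per cell, plus 1 and on a log axis, in the B-progenitor class and in 4 pooled non-B classes of each library: thick lines are medians, boxes the middle 50% of cells, thin lines the 10th to 90th percentile, and the dotted line the threshold of 38.9 counts. The double-deletion B-progenitor cells, with a median of 13, lie between the control B-progenitor cells, with a median of 193, and the non-B cells.

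A cell that lacks B220 still binds a little antibody, so the same count was read in HSC/MPP-like (stem and multipotent progenitor), erythroid, megakaryocyte and neutrophil-like cells. Their median was 4 in control (5799 cells), 7 under the Mll3 label (4465 cells), 8 under the Mll4 label (4056 cells) and 8 in the double-deletion library (45 cells). The median of the double-deletion B-progenitor cells, 13, was above that background. In that library 46.4% of the B-progenitor cells exceeded the 90th percentile of its non-B cells, 14.6 counts. In control all 471 cells exceeded the same percentile of their own library, as did 98.9% and 99.3% under the Mll3 and Mll4 labels. A threshold of 38.9 counts, set on all control cells where a low and a high population cross, was passed by 98.9% of control B-progenitor cells (97.5 to 99.7) and by 14.0% of double-deletion ones (13.2 to 14.8). It was passed by 98.4% and 92.3% under the Mll3 and Mll4 labels, and by 0.535% of the control non-B cells.

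High B220 counts were recorded within the double-deletion library itself. Of its 19 T/NK/innate lymphoid-like cells, 6 passed the threshold, with a highest count of 479. In control 14 of 50 cells of that class passed it. Under the Mll3 and Mll4 labels 17 of 30 and 11 of 46 did.

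B220 was low in the double-deletion B-progenitor cells under each division of the cells that was looked at. By cluster, the median was 13 in cluster 22 (5007 cells), 9 in cluster 23 (290 cells), 14 in cluster 24 (219 cells) and 15 in cluster 25 (1308 cells). In control it was 203.5 in cluster 0 (316 cells) and 167.5 in cluster 15 (154 cells). Cluster 15 held the dividing cells of control, with the proliferation gene Mki67 at 1400 CPM against 120 CPM in cluster 0, and clusters 24 and 25 those of the double-deletion library, at 1974 and 1683 CPM against 115 CPM in cluster 22. The Ptprc level differed far more between these clusters than B220 did: 44.7 CPM in cluster 23, 97.5 CPM in cluster 25, 120.5 CPM in cluster 22 and 189 CPM in cluster 24. In control it was 143.5 CPM in cluster 0 and 80.8 CPM in cluster 15.

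The labels do not say what the 2 hashtags mark. B220 was at a median of 13 and 14 in double-deletion cells with either hashtag alone (3672 and 2980 cells), and at 211 and 181 in control (197 and 272 cells). Cells with both hashtags, which hold doublets, had a median of 24.5, and the 46 cells with neither had 4.5. At matched depth the medians were as far apart: among cells with 2500 to 5000 gene UMIs, the B220 median was 223.5 in control (210 cells) and 9 in the double-deletion library (549 cells). Within the double-deletion library B220 was somewhat higher in deeper cells, with a median of 8 in the shallowest bin and 18 in the deepest. The Ptprc level went the other way, from 196 to 89.96 CPM over the same bins.

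**Figure D2:**
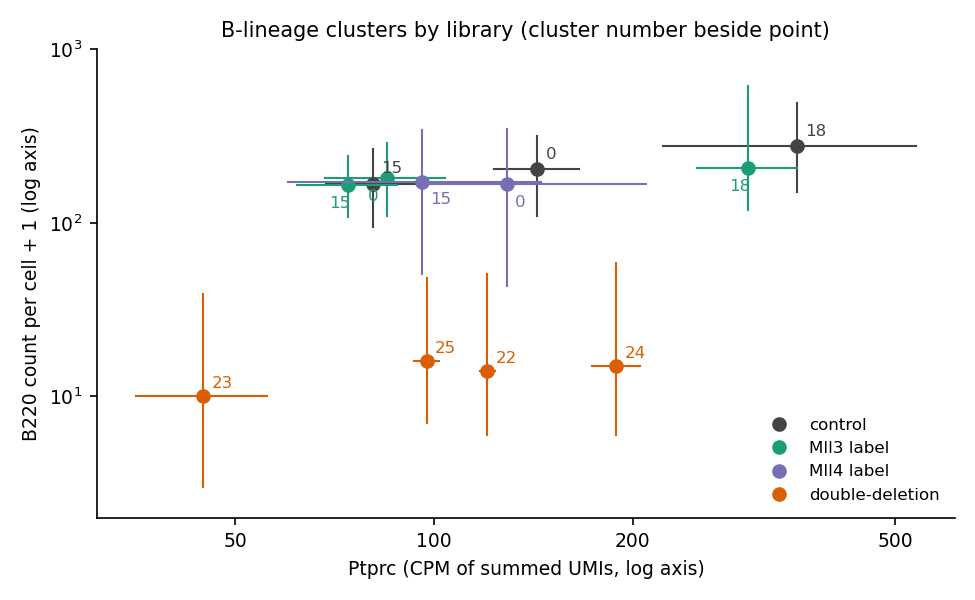
Median B220 count per cell, plus 1, against Ptprc CPM for each B-lineage cluster with at least 15 cells in a library, both on log axes; vertical lines span the 10th to 90th percentile of B220 and horizontal lines the 95% counting interval of Ptprc. Clusters of the double-deletion library lie at medians of 9 to 15 over a range of Ptprc that covers clusters 0 and 15 of the other libraries.

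Among single cells of a library, B220 and Ptprc barely went together. Over the B-progenitor cells, Spearman's rho between the B220 count and the Ptprc UMIs was 0.02 in control, 0.06 under the Mll3 label, 0.06 under the Mll4 label and 0.09 in the double-deletion library. Both counts of a cell share its capture, and most cells have 0 or 1 Ptprc UMI, so these weak values are no finding. In the double-deletion library the B220 median was 12 in the 2573 cells with no Ptprc UMI and 15 in the 1148 cells with the most. In control it was 190 in the 247 cells with none. Within the double-deletion class, the 956 cells above the B220 threshold had Ptprc at 103.9 CPM and the 5874 below it at 117.3 CPM, a log2 ratio of -0.18 (-0.26 to -0.09).

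Another class that bore B220 was the mature B-like class, cluster 18. It held 19 control cells and 145 cells under the Mll3 label, with B220 medians of 276 and 205. Its Ptprc levels were 355 CPM (223 to 538) in control and 299 CPM (251 to 355) under the Mll3 label, above the B-progenitor class of the same library. The Mll4 library had 4 such cells, and the double-deletion library had none under this clustering.

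Across the cell classes Ptprc was highest in T/NK/innate lymphoid-like cells, at 1321 CPM in control (1194 to 1458), 1124 CPM and 1152 CPM under the Mll3 and Mll4 labels and 1012 CPM in the double-deletion library, from 19 to 50 cells each. These 4 values overlap in their intervals except control and the double-deletion library. In control, mature B-like cells came next at 355 CPM (223 to 538, 22 UMIs), and then neutrophil-like cells at 250.5 CPM (244 to 257), so the intervals overlap. Under the Mll3 label these classes were at 299 CPM (251 to 355) and 230.2 CPM (222 to 238), which do not overlap. Neutrophil-like cells were at 349.7 CPM under the Mll4 label, where mature B-like cells gave 1 UMI and cannot be placed, and at 273.7 CPM in the double-deletion library. Basophil/mast-like cells were at 151.5 CPM in control and HSC/MPP-like cells at 132.2 CPM, 2 values that do not differ beyond counting error. The B-progenitor class, at 105.6 CPM, was below HSC/MPP-like cells in control, and the intervals of these classes do not overlap. Monocyte/macrophage progenitor-like (75.9 CPM), megakaryocyte-like (78.1 CPM) and granulocyte progenitor-like cells (67.3 CPM) lay close together in control. Erythroid progenitor-like cells were lowest, with 19.5 CPM in control, 13.8 CPM under the Mll3 label and 25.4 CPM under the Mll4 label. Under the Mll4 label Ptprc was above control in granulocyte progenitor-like cells by a log2 ratio of 0.77, in monocyte/macrophage progenitor-like cells by 0.72, in neutrophil-like cells by 0.48, in erythroid progenitor-like cells by 0.38, in HSC/MPP-like cells by 0.15 and in basophil/mast-like cells by 1.06. In megakaryocyte-like cells it was 0.026, with an interval across 0 (-0.22 to 0.27). Over all kept cells the log2 ratio was 1.26 there, a value that also carries the makeup of the library, in which 2687 of 5350 cells were neutrophil-like.

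**Figure D3:**
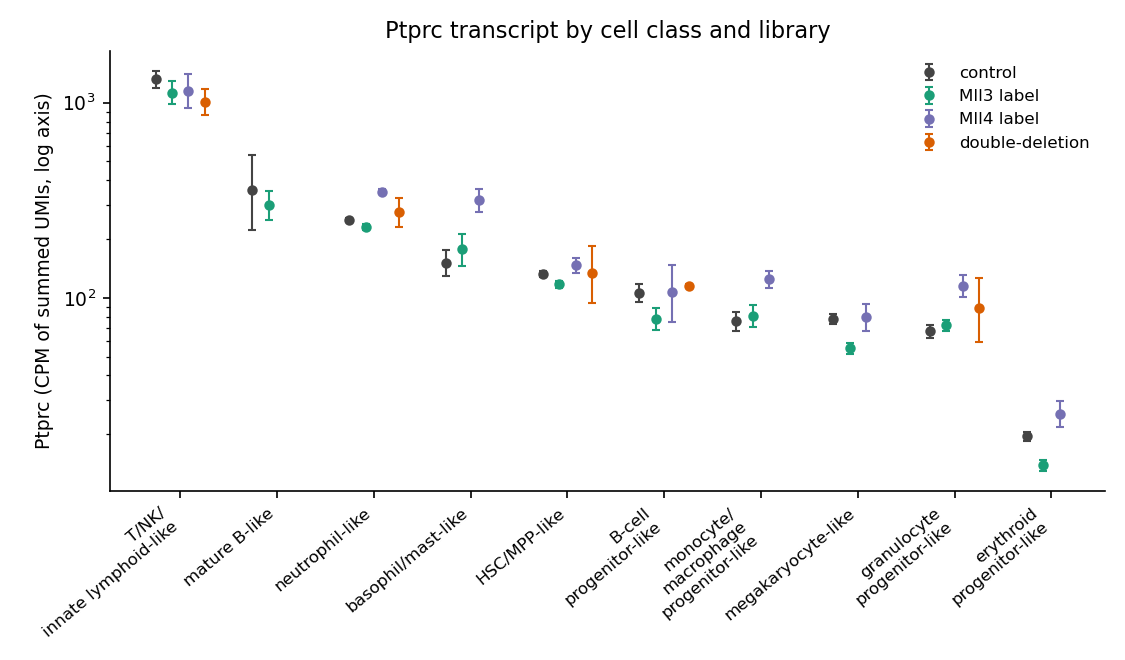
Ptprc in CPM, on a log axis, for each cell class with at least 10 cells in a library; points are 1 library each and bars are 95% counting intervals. T/NK/innate lymphoid-like cells lie above 1000 CPM in every library and erythroid progenitor-like cells near 20 CPM, with the B-progenitor class between 78.1 and 115.1 CPM.

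By class, B220 had a different order from Ptprc. T/NK/innate lymphoid-like cells, the highest in Ptprc, had a B220 median of 9.5 in control. Their median was 52.5 and 18 under the Mll3 and Mll4 labels and 17 in the double-deletion library. Neutrophil-like cells, with more Ptprc than the B-progenitor class, had 5 in control. Over 27 sums of a class in a library with at least 50 cells, B220 was the antibody most like Ptprc, with a Pearson correlation of only 0.32 on the log2 scale. Among the genes most like Ptprc over these sums were Sp100 (0.94), Arhgap30 (0.93), Dock2 (0.92) and Nfatc1 (0.92). The genes most like the B220 count were Chst3 (0.97), Fam53b (0.94), Spib (0.93), Grap (0.92) and BE692007 (0.92), and the antibody most like it was CD127 (0.82), the IL-7 receptor. The sums share libraries and depth, and these genes were the closest of 8140, so the values only describe. Chst3, a carbohydrate sulfotransferase, was at 112 CPM in the B-progenitor class in control (101 to 124), 81.3 CPM and 109 CPM under the Mll3 and Mll4 labels and 6.06 CPM in the double-deletion library (5.52 to 6.64).

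B220 was not the only antibody that stood apart in the double-deletion B-progenitor cells. CD48, an adhesion molecule of most blood cells, had a median of 1031 in control and 26 in the double-deletion library. CD117, the Kit receptor used in the gate, had medians of 55 and 256. Sca1 had medians of 18 and 28, 90th percentiles of 61 and 334, and means of 30.9 and 129. CD127 had medians of 32 and 45, and the CD34 median was 6 and 1. For 11 of the 13 antibodies a single transcript encodes the target, and 9 of those transcripts had at least 20 UMIs in either library. In 8 of the 9 pairs the antibody and its transcript differed from control in the same direction. For CD150, 1 of these 8, the interval of its transcript Slamf1 crossed 0 (-2.06 to 0.90). The exception was B220 with Ptprc, the pair chosen beforehand for this contrast, so its place here is no finding. The Ptprc interval also crossed 0 (-0.03 to 0.29). For CD48 the log2 ratio was -2.72 by antibody and -3.68 by the Cd48 transcript, which had 153 CPM in control against 12.0 CPM in the double-deletion library. For CD117 it was 2.17 by antibody and 1.18 by Kit, for Sca1 2.07 and 1.39 by Ly6a, and for CD127 0.52 and 1.41 by Il7r. For CD34, whose antibody counts were near background, it was -2.07 by antibody and -6.31 by a transcript with only 20 and 6 UMIs. For CD11b, with few antibody counts, it was -1.01 by antibody and -7.77 by Itgam, from 55 and 6 UMIs. For CD135 it was 0.87 by antibody and 2.40 by Flt3. For B220 it was -3.05 by antibody and 0.12 by Ptprc. In 4 of the 9 pairs, CD11b, CD34, B220 and CD135, the 2 ratios were at least 2-fold apart, and the gap was wider for CD11b and CD34 than for B220. Under the Mll3 and Mll4 labels the 2 ratios for B220 and Ptprc differed by 0.29 and -0.14.

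**Figure D4:**
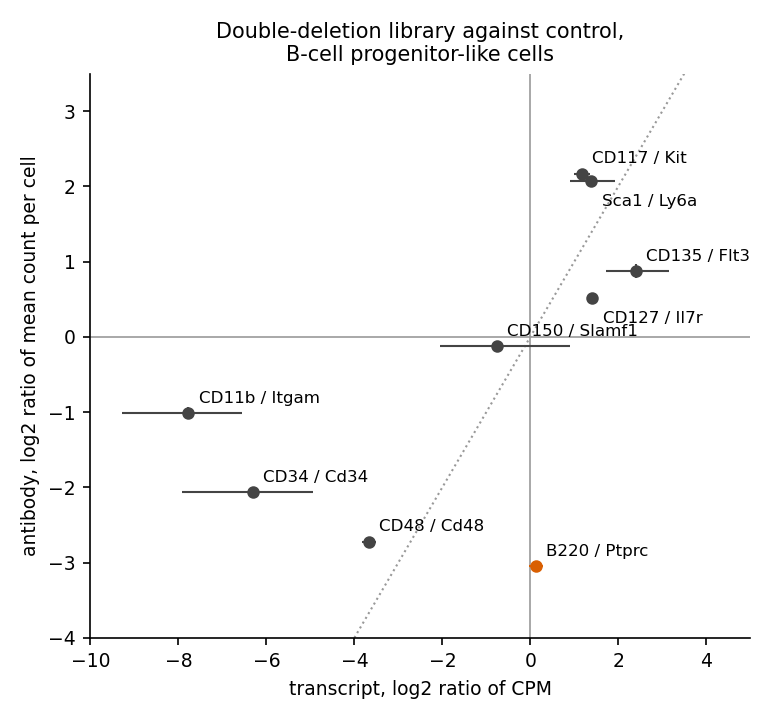
Log2 ratio of the double-deletion library to control in the B-progenitor class, by antibody (mean count per cell) against the transcript of its target (CPM), for 9 antibodies; bars are 95% counting intervals and the dotted line marks equal ratios. B220 with Ptprc is at -3.05 and 0.12, CD48 with Cd48 at -2.72 and -3.68, and CD11b with Itgam at -1.01 and -7.77.

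Genes tied to CD45 were then read in the B-progenitor class from 5 lists. They come from the contrast that chose B220 and Ptprc, so their counts are a description. Of 13456 genes with at least 20 counts in either library, 9.45% were at least 2-fold higher in the double-deletion library than in control and 7.39% at least 2-fold lower, and the median log2 ratio was 0.02. Under the Mll3 label these shares were 0.417% and 1.89% of 8869 genes, and under the Mll4 label 8.19% and 8.52% of 8733. Gene ratios carry a pseudocount of 1 CPM, which keeps genes far below 1 CPM in both libraries within 2-fold. The shares of all tested genes were not matched to the lists by expression level.

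Of 27 splicing factors of the variable CD45 exons or of the same families, 2 were at least 2-fold higher in the double-deletion library. That is near the 9.45% of all tested genes, so the count does not set the list apart. None was 2-fold lower, beside 7.39% of all tested genes, and the median log2 ratio of the list was -0.10. The 2 higher ones were Hnrnpll and Rbfox2. Hnrnpll (chr17:80029487-80062334, minus strand) was at 6.29 CPM in control (3.84 to 9.71, 20 UMIs), 6.25 CPM under the Mll3 label (3.70 to 9.88, 18 UMIs), 19.7 CPM under the Mll4 label (7.90 to 40.5, 7 UMIs) and 30.2 CPM in the double-deletion library (28.9 to 31.4, 2289 UMIs). The intervals of control and the double-deletion library do not overlap, and that under the Mll4 label reaches into both. The log2 ratio to control in the double-deletion library was 2.10. It was 0.92 when cells were chosen by counting B-lineage markers in place of clusters, a rule that takes in 23 deep control cells of other classes with 36 Hnrnpll UMIs. Rbfox2 rests on 1 control UMI. The other factors with a known part in CD45 splicing were near control: Hnrnpl was at a log2 ratio of -0.26, Ptbp1 at -0.29 and Sfpq at 0.03. Sfpq shares its strand with an overlapping gene model, so the counting could split its reads.

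Hnrnpll was low in the B-progenitor class of control beside most of the other named classes. It was at 68.5 CPM in erythroid progenitor-like, 58.5 CPM in neutrophil-like, 40.9 CPM in HSC/MPP-like and 61.3 CPM in granulocyte progenitor-like cells, all with B220 medians of 4 or 5. T/NK/innate lymphoid-like cells were at 9.98 CPM from 3 UMIs (2.06 to 29.2), an interval that holds the B-progenitor value. The 145 mature B-like cells under the Mll3 label were at 9.001 CPM (2.45 to 23.05, 4 UMIs), and the 19 of control at 48.4 CPM (9.98 to 141, 3 UMIs). The double-deletion B-progenitor cells, at 30.2 CPM, lay between the control B-progenitor class and the non-B classes. Hnrnpll was higher under the Mll4 label in HSC/MPP-like cells (71.6 CPM) and neutrophil-like cells (94.6 CPM) too.

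Within the double-deletion B-progenitor cells, Hnrnpll was lower in the bins of cells with more B220, but it did not follow the median B220 count over their clusters. In bins that start at 0, 10, 20, 40, 80 and 160 B220 counts it was at 34.5 CPM (2175 cells), 33.3 CPM, 28.1 CPM, 21.1 CPM, 15.6 CPM and 12.7 CPM (7.25 to 20.6, 96 cells). The interval of the last bin overlaps that of the control class. Ptprc showed no such course, at 120, 113, 121, 109, 86.9 and 112 CPM over the same bins. Median depth went from 8539 to 11364 UMIs between the first and the last bin. The part of depth in this course was not tested. By cluster, Hnrnpll was lowest in cluster 23, at 13.8 CPM (8.81 to 20.5), where the B220 median of 9 was lowest too, and highest in cluster 25, at 38.6 CPM (35.9 to 41.3), where the B220 median of 15 was highest. It was at 27.7 CPM in cluster 22 and 23.5 CPM in cluster 24, with B220 medians of 13 and 14. In cells with either hashtag alone Hnrnpll was at 29.4 and 31.0 CPM in the double-deletion library, and at 7.29 and 5.55 CPM in control.

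Between cells above and below the B220 threshold in that library, 0.107% of 13123 genes were at least 2-fold higher and 0.114% at least 2-fold lower. Hnrnpll, at 18.9 CPM above and 32.4 CPM below the threshold, had a log2 ratio of -0.75 and was the lowest of the 27 splicing factors. The highest of them was at 0.12, and their median was 0.02. No member of the 5 lists was past 2-fold between these cells. Genes past 2-fold, picked after their values were seen, included Nav1 (1.75) and Sost (2.41) on the higher side, and Rprm (-2.87), Plac8 (-1.14) and Cish (-1.14) on the lower.

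**Figure D5:**
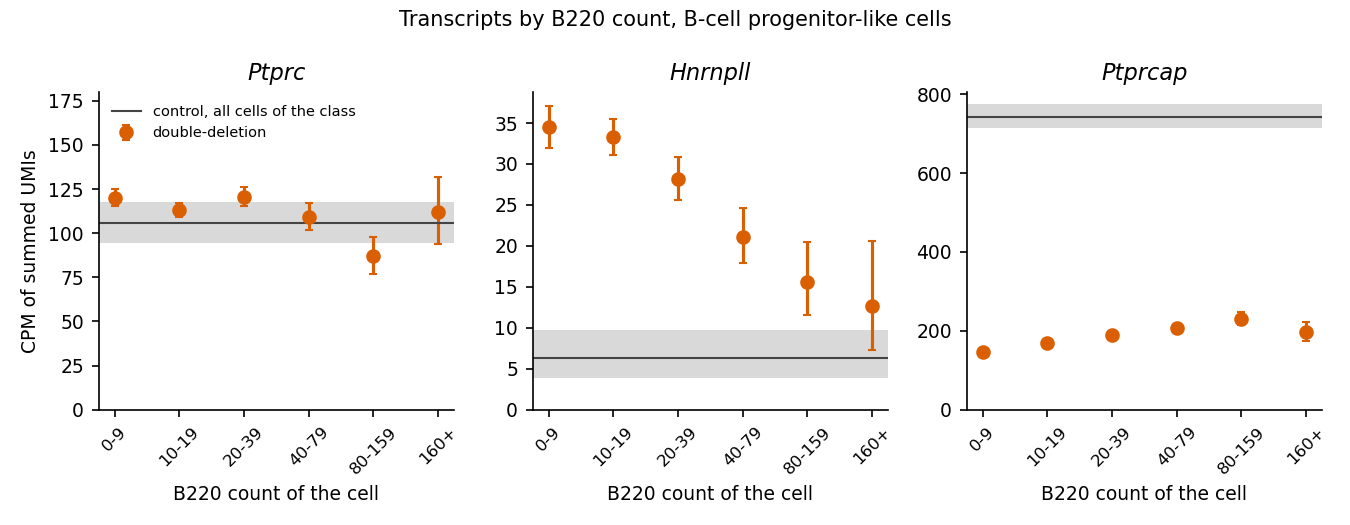
CPM of Ptprc, Hnrnpll and Ptprcap in double-deletion B-progenitor cells by the B220 count of the cell; points are sums over the cells of a bin with 95% counting intervals, and the grey line and band give the whole control class with its interval. Hnrnpll goes from 34.5 to 12.7 CPM over the bins, while Ptprc stays between 86.9 and 121 CPM and Ptprcap lies well below the control level of 743 CPM in every bin.

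Partners and substrates of CD45 were more often lower than higher. The control class also held more neutrophil markers (2520 against 80.9 CPM) and granulocyte progenitor markers (825 against 63.9 CPM). Their part in the values of these genes was not tested. Of 24 genes of this list with enough counts, 11 were at least 2-fold lower in the double-deletion library, beside 7.39% of all tested genes. At least 2-fold higher were 2, beside 9.45%, and the median log2 ratio was -0.31. Ptprcap (chr19:4153604-4156751), which encodes a small membrane protein that associates with CD45, was at 743 CPM in control (714 to 774), 692 CPM under the Mll3 label, 331 CPM under the Mll4 label (274 to 397) and 173 CPM in the double-deletion library (171 to 176). The log2 ratio in the double-deletion library was -2.09. Ptprcap overlaps Coro1b on the same strand and Rps6kb2 on the other, so its counts are uncertain to that degree. In control it was at 286 CPM in HSC/MPP-like cells, 101 CPM in erythroid progenitor-like cells and 6.34 CPM in neutrophil-like cells. It was also low in each B220 bin of the double-deletion cells, from 145 CPM in the lowest to 231 CPM in the bin from 80 counts.

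Of the Src-family kinases, Lyn, the main one of B cells, had a log2 ratio of -1.48, and Blk (-3.57, 3 UMIs in the double-deletion cells) and Lck (-3.03, 91 UMIs there) were lower still. Fyn, another kinase that CD45 acts on, was within 2-fold, at 70.8 CPM (5374 UMIs) against 48.4 CPM in control (154 UMIs), a log2 ratio of 0.54. Yes1, of the same family, was at 21.99 CPM against 0.629 CPM, from only 2 control UMIs. Csk, the kinase that opposes CD45, was at 103 CPM and 89.9 CPM, a log2 ratio of 0.19. Further down the B-cell receptor pathway, Syk (-2.03) and Btk (-3.98), both tyrosine kinases, were lower. Cd79a (0.73), Cd79b (-0.52) and Blnk (0.09), 2 receptor chains and an adaptor, were within 2-fold. The phosphatase Ptpn6 (SHP-1) was at -2.60, and Ptpn22, which also acts on Src-family kinases, was at 2.83 and has gene models overlapping on its strand. Lgals1, a galectin that binds CD45 sugars, had the lowest ratio of the list at -5.79, with 495 CPM in control against 7.95 CPM in the double-deletion library.

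Enzymes that build the sugars of leukocyte surface proteins differed both ways. Of 30, 5 were at least 2-fold higher, beside 9.45% of all tested genes, and 4 at least 2-fold lower, beside 7.39%. The largest were the sialyltransferase St3gal6 (2.43), the N-glycan branching enzyme Mgat4a (2.28) and the O-glycan starter Galnt3 (1.75). B3gnt2, which extends lactosamine chains, was at -2.19, with 540 CPM in control against 118 CPM in the double-deletion library. Mgat5 was at -1.19 and St6galnac6 at -1.66. Of the enzymes for the core structures on CD45, St3gal1 was at 1.39, Gcnt1 at -0.56 and St6gal1 at -0.30.

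The other receptor-type tyrosine phosphatases were sparse, and 8 of 19 found had enough counts. Of these 8, 3 were called higher and 1 lower, beside 9.45% and 7.39% of all tested genes. Ptprf was not detected in the control class and at 8.25 CPM in the double-deletion library, at least 8.75-fold above the level that 3 control counts would give. For Ptprg the same bound was 1.94-fold. Ptprm was at 1.57, and Ptprj, which is expressed on many leukocytes, at -1.11.

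Genes of the B-cell stages were read last. Of 31 tested, 4 were at least 2-fold higher in the double-deletion library, beside 9.45% of all tested genes. At least 2-fold lower were 5, beside 7.39%. Higher were genes of early progenitors, Flt3 (2.21), Il7r (1.41) and Kit (1.17), and Enpep (3.39), the pre-B antigen BP-1. Lower were Igkc (-2.14), Cd74 (-2.03), Cd22 (-1.98) and H2-Aa (-1.56), genes of later B cells, at 0.448 to 12.7 CPM in the double-deletion library. Cd22 and H2-Aa had only 15 and 17 control UMIs. Other listed genes of later B cells did not go this way. H2-Ab1 was higher, at 177 CPM against 112 CPM in control. Ighd (21.7 against 25.8 CPM) and Cr2 (2.49 against 2.83 CPM) were near control. Cd93, a marker of immature B cells, was the lowest at -6.01, with 195 CPM in control against 2.04 CPM in the double-deletion library. Members of the list within 2-fold also differed both ways. Dntt was at 660 CPM in the double-deletion library against 1240 CPM in control, and Pax5 at 368 CPM against 246 CPM. B220 rises on B cells as they mature, and the control and double-deletion classes differed in these genes and in their clusters, so stage and deletion cannot be told apart in the B220 value.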

How the data were processed

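The authors deposited 1 matrix of gene and antibody counts a library, made from a 10x Genomics 3′ version 3.1 preparation per the labels' protocols and with Cell Ranger 6.1.2 on mm10 per the submitters' processing notes. The counts are UMIs with no normalization. Barcodes with at least 500 genes, 1000 gene UMIs and at most 10% mitochondrial UMIs were kept, and the highest Scrublet scores were removed as doublets at 0.8% per 1000 barcodes. Cells were clustered with scanpy 1.11.5 (2000 variable genes without Ptprc, 30 principal components, 15 neighbours, Leiden resolution 1) and named from markers of 14 classes. Counts were summed over a class and given as CPM with exact Poisson intervals; ratios have exact conditional binomial intervals. Shares have exact binomial intervals. Only the gene ratios and their intervals were tested on simulated data. Counts were not corrected for free RNA. Trimmed mean (TMM) scaling came from edgeR 4.0.16, used for factors only.

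The gene pair, the markers, the 5 lists and the alternatives were chosen with earlier results of these data known. Of 140 list genes, 139 were found. Named were Ptprc, the antibodies, up to 5 list members each way past 2-fold in the double-deletion library, list members with a known part in CD45 biology, and the 5 closest genes by correlation, of which 1 is not reported here. Cd79a, Cd79b and Blnk, and the genes split by the B220 threshold, were named after their values were seen. Gene positions are from GENCODE M21.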

Additional observations from a re-analysis of the deposited data

Results flagged for a closer look

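As reported, the mean B220 count was slightly below control in the B-progenitor class and above control in other classes of the same library, a difference that was not tested. Under the Mll3 label the log2 ratio of the mean B220 count to control was -0.15 in the B-progenitor class and above 0 in the 7 other classes that could be compared, from 0.36 in neutrophil-like cells to 1.21 in basophil/mast-like cells. The B-progenitor value is not stable there: it turned to 0.036 at Leiden resolution 0.5 and with the mature B-like class added, and to 0.0017 per 1000 other surface antibody counts, and was -0.0023 by the marker count rule. Under the Mll4 label it was -0.12 in the B-progenitor class and above 0 in the same 7 classes, from 0.65 in granulocyte progenitor-like cells to 2.47 in basophil/mast-like cells. The B-progenitor value there kept its sign but was -0.0090 by the marker count rule. The counts in those classes were near background, with medians of 4 to 10 in all 3 libraries.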

How the results depend on the processing

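The low B220 value of the double-deletion library kept its sign under all 12 alternatives, between -3.89 and -2.21 on the log2 scale. It was -2.99 with no doublet removal, -3.08 at Leiden resolution 0.5 and with the mature B-like class added, -3.06 in cells with exactly 1 hashtag, -2.21 per 1000 counts of other surface antibodies, -3.89 by the median and -3.70 after division by the non-B mean of the library. Its Ptprc ratio was -0.082 as a mean share of UMIs per cell and 0.84 without scaling. Under the Mll3 label the Ptprc ratio was -0.035 at resolution 0.5 or with mature B-like cells. B220 turned to 0.036 under those settings and to 0.0017 per 1000 other antibody counts. It was -0.033 with the looser filter, -0.0023 with the marker count rule, -0.17 by the median and -0.78 after division by the non-B mean. Under the Mll4 label Ptprc was 0.52 with the looser filter, -0.91 when thinned (11 UMIs) and -1.42 without scaling. B220 there was -0.021 with the looser filter, -0.037 at resolution 0.5 or with mature B-like cells, -0.0090 with the marker count rule, -0.34 per 1000 other antibody counts, -0.22 by the median and -0.94 after division by the non-B mean. The small B220 and Ptprc differences of the 2 single-deletion libraries thus depend on these settings, and the cause was not tested.

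Alternatives for gene counts were chosen after seeing the data. The number of genes at least 2-fold higher in the double-deletion library was 535 with a pseudocount of 5 CPM, against 1272. Under the Mll3 label, the number of higher genes was 37 as reported, 161 with the marker count rule, 81 with mature B-like cells, 14 with a minimum of 50 counts and 13 with a pseudocount of 5 CPM, and that of lower genes 168 as reported and 48 and 46 under the last 2. Under the Mll4 label, the number of higher genes was 715 as reported, 363 with a minimum of 50 counts, 337 with TMM scaling and 450 with a pseudocount of 5 CPM, and that of lower genes 744 as reported and 357 and 449 under the first and last of these. Lyn under the Mll3 label went from -0.37 to 0.082 with mature B-like cells. No replicate could be left out, and no paired analysis was possible because each group has 1 library.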
